A study of Lentinus brumalis with 11 samples.

Results

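The comparison described here is the step from Day 4 to Day 10 of solid-state fermentation (SSF) of wheat straw by the white-rot fungus *Polyporus brumalis*. SSF is growth on a moist solid without free water. The members were chosen by their labels alone: the 2 libraries of SSF Day 4 and the 3 libraries of SSF Day 10, which are 5 of the 11 libraries sequenced. All 5 come from mycelium of the dikaryotic strain BRFM 985, grown on malt extract (2%) for 6 days per the labels, ground, and transferred to columns packed with sterilized wheat straw. Solutions of copper, iron and manganese sulfates were added to the straw in every SSF culture, and the columns were held at 28 °C under a flow of moist air. The other 6 libraries, 3 from SSF Day 15 and 3 from a liquid control grown for 10 days on malt extract (2%), entered the fit to help estimate the spread. Their levels are quoted in places, and the Day 15 libraries also serve at the end to set the next step beside this one. A single strain was grown on a single substrate, and the reference for mapping was a monokaryon obtained from that strain, which carries a single set of its alleles. RNA of the fermentations was extracted from straw and mycelium ground together, so in these bulk samples fewer cells making a transcript and less of it per cell cannot be told apart.

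White-rot fungi break down lignin, the aromatic polymer of the plant cell wall, with secreted class II peroxidases (family AA2). Versatile peroxidases (VPs) oxidize manganese and also aromatic compounds directly, manganese peroxidases (MnPs) act through oxidized manganese, and generic peroxidases (GPs) have a lower oxidizing power. All MnPs examined here are of the short kind, which per the study can also oxidize phenols without manganese. All of them consume hydrogen peroxide, which copper radical oxidases (AA5_1) and oxidases of the glucose-methanol-choline family (AA3) can release. Cellulose is cut by glycoside hydrolases (GH families) together with lytic polysaccharide monooxygenases (AA9), while further glycoside hydrolases and carbohydrate esterases (CE families) act on hemicellulose and pectin.

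The 5 libraries held 22644347 to 26082855 counted reads each, with 15839 to 15883 genes detected per library. Genes of carbohydrate-active enzymes that the study had listed as highly transcribed on straw took a mean of 8.88% of all counts at Day 4. Their mean was 6.14% at Day 10 and 0.102% in the liquid control. The study chose this list for high transcription at Day 4 and lower transcription in the liquid control, in these same libraries. Such a choice favours both differences, so their direction has no independent support here. The libraries of 1 day resembled each other more than those of the other day: the median absolute difference between libraries, over all genes tested, was 0.19 on the log2 scale for the Day 4 pair, 0.22 to 0.29 for the Day 10 pairs and 0.44 to 0.53 between days. Levels are given throughout as log2(normalized count + 1), so that a step of 1 is a doubling.

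SSF Day 10 replicate 3 stood apart from the other Day 10 libraries, and this touches many of the results below. To measure it, genes were taken that changed by more than 1 on the log2 scale when a given Day 10 library was left out, and that library was then placed on a scale from 0 (the Day 4 mean) to 1 (the mean of the other Day 10 libraries). The median position was 0.986 for replicate 1 over 2732 genes, 1.04 for replicate 2 over 2608 genes and 0.814 for replicate 3 over 3010 genes. Replicate 3 lay between Day 4 and the other Day 10 libraries for 73.4% of its genes, compared with 50.7% for replicate 1 and 42.3% for replicate 2. It was nearer to Day 4 for genes that rose (median position 0.78) than for genes that fell (0.853). It was not intermediate everywhere: over the 36 AA3 genes it was above all 4 other libraries in 13 and below all in 7. Over 11 cytochrome P450 genes it was below all of them in 8 and above all in 1. It lay within their range in 15 of 19 AA2 genes and in 18 of 20 single-copy genes of the study's phylogeny. The share over all genes was not counted, so these numbers have no baseline here. The part of sampling, growth or library preparation in this was not tested, and values without this library are given beside the results that it moves.

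**Figure D1:**
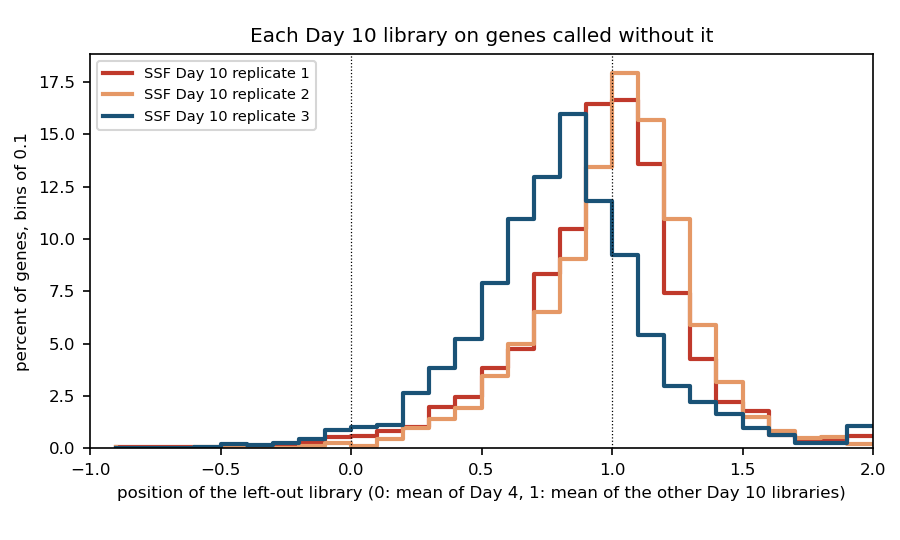
Position of each Day 10 library, left out in turn, on the genes called without it (adjusted p under 0.05 and a change over 1 on the log2 scale). The horizontal axis runs from the Day 4 mean at 0 to the mean of the other Day 10 libraries at 1, the vertical axis gives the percent of genes per bin of 0.1, and values beyond the limits are placed in the end bins. Replicate 3 (median 0.814) is shifted toward Day 4, while replicates 1 and 2 (medians 0.986 and 1.04) are centred near 1.

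Transcript levels changed widely over these days, and nearly as many genes rose as fell. Of 15462 genes tested, 3450 (22.3%) were higher and 3402 (22.0%) lower at Day 10, together 44.3% of the genes (edgeR quasi-likelihood test, Benjamini-Hochberg adjusted p under 0.05). The median fold change over all genes was 0.03 on the log2 scale, with the 10th and the 90th percentile at -0.90 and 1.11. The rises were larger: 1578 genes rose and 1186 fell by more than 1 on the log2 scale, 401 rose and 236 fell by more than 2, and 36 rose and 3 fell by more than 5. The balance between rises and falls depends on the scaling. Scaled by library totals instead of TMM, the median of all genes moved to 0.17 and the counts became 4544 higher and 2477 lower, so that the share of rises among the calls went from 50.4% to 64.7%. Without SSF Day 10 replicate 3, 3827 genes were higher and 3585 lower. When the Day 15 and liquid control libraries were kept out of the model, 2437 genes were higher and 2365 lower. Part of the calls therefore depends on including those libraries.

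None of the 36 genes that rose by more than 5 was in a list examined here. Of these, 14 had at most 3 counts over both Day 4 libraries, and 22 had a mean of at least 50 counts over the 5 libraries. Among genes at 0 in both Day 4 libraries, 10 were called higher, with 11 to 73 counts over the Day 10 libraries. Set against a floor of 3 counts over the Day 4 group, these were at least 2.36-fold to at least 15.6-fold higher. No gene at 0 in every Day 10 library was called lower by edgeR. Calls were most frequent among abundant transcripts. Among the 3866 genes with the highest mean level over all libraries (from 10.29 to 17.61), 27.5% rose and 31.6% fell, and among the 3866 with the lowest 14.3% rose and 7.94% fell.

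**Figure D2:**
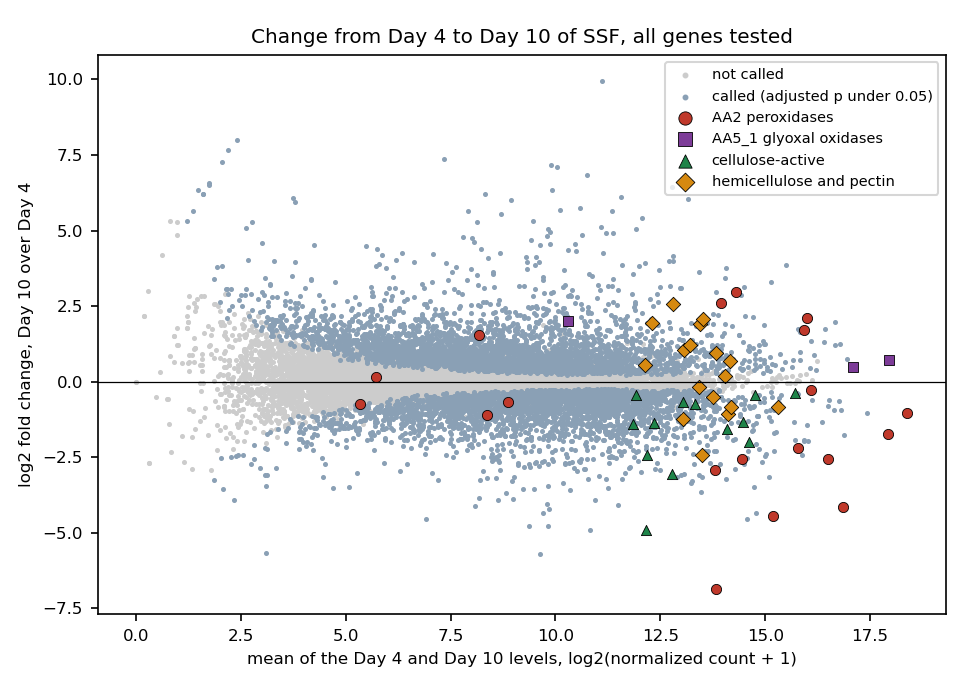
Log2 fold change from Day 4 to Day 10 (vertical axis) against the mean of the Day 4 and Day 10 levels (horizontal axis) for the 15462 genes tested, with called genes in blue-grey and 4 lists marked by colour and shape. The peroxidase genes (red) reach from -6.85 to 2.97, the 13 cellulose-active genes (green) all lie below 0, and the 17 hemicellulose and pectin genes (orange) lie on both sides. The legend names the AA5_1 copper radical oxidases glyoxal oxidases, a likeness that the study gives for only some of them.

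The peroxidases were the most abundant of the listed transcripts and lost the largest share of the transcriptome. The 19 AA2 genes together held 7.83% and 7.86% of all counts in the Day 4 libraries and 2.86%, 3.22% and 3.73% in the Day 10 libraries. The libraries of the days did not overlap. With 2 against 3 libraries, the exact two-sided permutation test used, which doubles the smaller tail, cannot go below p = 0.2. That is the value it gave. At Day 4, 6 of the 10 genes with the highest share of counts were VPs, led by 1360396 and 1487275 with 1.59% each (genes are named by protein number). At Day 10 only 2 of the top 10 were VPs and 2 were AA5_1 oxidases, led by the AA5_1 gene 713930 with 1.16%. The intervals that counting error allows for such shares were at most 0.0116 percentage points to either side (95% Wilson intervals), against a difference between the means of the days from 7.84% to 3.27% for AA2.

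**Figure D3:**
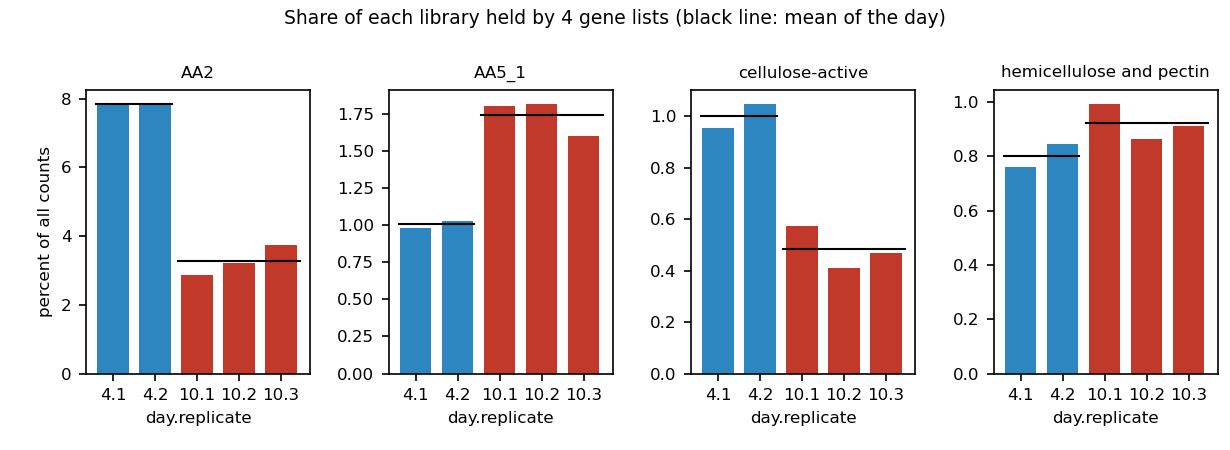
Percent of all counts in each Day 4 (blue) and Day 10 (red) library held by the AA2 peroxidases, the AA5_1 copper radical oxidases, the cellulose-active genes and the hemicellulose and pectin genes, with a black line at the mean of each day and a separate vertical scale, starting at 0, in each panel. The AA2 share fell from a mean of 7.84% to 3.27% and the cellulose-active share from 1.00% to 0.484%, while the AA5_1 share rose from 1.01% to 1.74%.

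Members of the AA2 family changed in opposite directions. Of its 19 genes, all tested, 5 rose and 12 fell, with a median fold change of -1.04 on the log2 scale. That is 26.3% rising and 63.2% falling, where 22.3% and 22.0% of all genes did. The AA2 list comes from the annotation of the genome and not from expression. The 12 members that fell made up 93.7% and 93.3% of the family's counts in the Day 4 libraries, and 46.4%, 43.6% and 71.8% in Day 10 replicates 1, 2 and 3. The 5 members that rose went from 3.05% and 3.55% to 45.3%, 47.9% and 23.8%. These shares were computed on members grouped by their own change, so they describe its size and do not test it. Replicate 3 had the smallest shift of the Day 10 libraries.

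Among the 9 VPs, 6 fell and 3 rose. The steepest fall in any list was that of VP 1359988, which had levels of 17.26 and 17.46 at Day 4 and of 10.01, 9.57 and 11.29 at Day 10. Its log2 fold change was -6.85 ± 0.45 (SE, edgeR, adjusted p = 1.0e-07), a 116-fold decrease, and -7.52 without Day 10 replicate 3. A gene among the most transcribed of the fungus at Day 4 was thus left with 623 to 2101 counts per library. VP 1110945 fell from 17.54 and 17.55 to 12.31, 12.16 and 13.97 (log2 fold change -4.45 ± 0.47, adjusted p = 7.0e-06). VP 918032 fell from 18.03 and 17.95 to 14.34, 14.17 and 16.44 (-2.57 ± 0.51, adjusted p = 1.2e-03). In all 3 genes replicate 3 kept a higher level than the other Day 10 libraries, and without it the fold changes of 1110945 and 918032 were -5.26 and -3.69.

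The fall of VP 1360396 did not vary in this way. Its levels were 18.93 and 18.97 at Day 4 and 14.71, 14.72 and 14.91 at Day 10, and its log2 fold change was -4.14 ± 0.13 (adjusted p = 5.6e-10). With 1487275 it held the largest share of counts at Day 4, and it fell 17.7-fold, with the Day 10 libraries within 0.20 of each other. VP 310665 fell from 18.79 and 18.89 to 16.72, 16.74 and 17.62 (-1.72 ± 0.23, adjusted p = 5.2e-05). VP 1487275 fell least of the 6, from 18.91 and 18.98 to 17.46, 17.64 and 18.37 (-1.04 ± 0.22, adjusted p = 2.0e-03), and it remained the most abundant peroxidase at Day 10. Per kilobase of gene span (introns included), its level was 13100 CPM (counts scaled per library) at Day 4 and 6350 at Day 10. For VP 1360396 the same quantity went from 12900 to 732.

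Of the 3 VPs that rose, 2 reached high levels at Day 10. VP 1412926 had levels of 14.62 and 15.28 at Day 4 and of 17.09, 17.27 and 16.75 at Day 10 (log2 fold change 2.09 ± 0.19, adjusted p = 2.4e-06). VP 897918 went from 15.13 and 15.07 to 16.70, 17.12 and 16.47 (1.71 ± 0.17, adjusted p = 5.0e-06). Per kilobase they stood at 2720 and 2370 CPM at Day 10, above the 732 of 1360396 and near the 2920 of 310665. VP 935251 rose from 7.49 and 7.41 to 8.76, 8.72 and 9.29 (1.53 ± 0.18, adjusted p = 1.6e-05). It is a minor transcript on straw at either day, and its mean level in the liquid control was higher, at 10.49.

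The 9 short MnPs showed the same division: 2 rose, 6 fell and 1 did not pass the test. MnP 1185543 had the largest rise of the family, from 12.82 and 13.07 to 16.22, 16.37 and 14.46 (log2 fold change 2.97 ± 0.41, adjusted p = 7.9e-05). MnP 1347226 rose from 12.67 and 12.78 to 15.47, 15.83 and 14.19 (2.61 ± 0.35, adjusted p = 5.1e-05). Replicate 3 was again nearest to Day 4 in both, and without it the rises were 3.39 and 2.98. Even the lowest Day 10 library lay above both Day 4 libraries. These genes were 7.85-fold and 6.11-fold higher at Day 10, and per kilobase they reached 1240 and 1070 CPM.

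MnP 1487289 fell from 15.51 and 15.46 to 11.37, 11.40 and 13.59 (log2 fold change -2.92 ± 0.51, adjusted p = 4.9e-04). MnP 1487292 fell from 15.87 and 16.00 to 12.14, 12.23 and 14.44 (-2.55 ± 0.51, adjusted p = 1.4e-03). These genes lie 3 places apart in the gene order of the RefSeq assembly, and their libraries kept nearly the same order and spacing. Their gene spans are only 324 and 371 bases, against 1364 or more for the other short MnPs. Whether they are partial gene models was not tested. Without replicate 3 their fold changes were -4.05 and -3.71, which with VP 918032 are the largest shifts among the named genes on leaving out this library. MnP 1486819 fell from 17.03 and 16.75 to 14.74, 14.94 and 14.31 (-2.18 ± 0.17, adjusted p = 5.1e-07), and here replicate 3 was the lowest library.

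The remaining short MnPs were scarce or stable. MnP 1340324, with levels of 16.28 and 16.26 at Day 4 and 16.03, 16.27 and 15.47 at Day 10, did not pass the test (log2 fold change -0.29 ± 0.18, adjusted p = 0.22), and its groups overlapped. It was the short MnP with the highest level per kilobase at Day 10, with 1690 CPM. MnPs 1363610, 855582 and 1418086 had levels under 10 in all 5 libraries and fell by 1.12, 0.67 and 0.75 on the log2 scale. The call of 1418086, which had 21 to 41 counts per library, was lost without Day 10 replicate 3 (adjusted p = 0.082), without either Day 4 library and with a replicate block. The only GP, 1560842, had 36 to 46 counts per library and a log2 fold change of 0.15 ± 0.22 (adjusted p = 0.61).

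**Figure D4:**
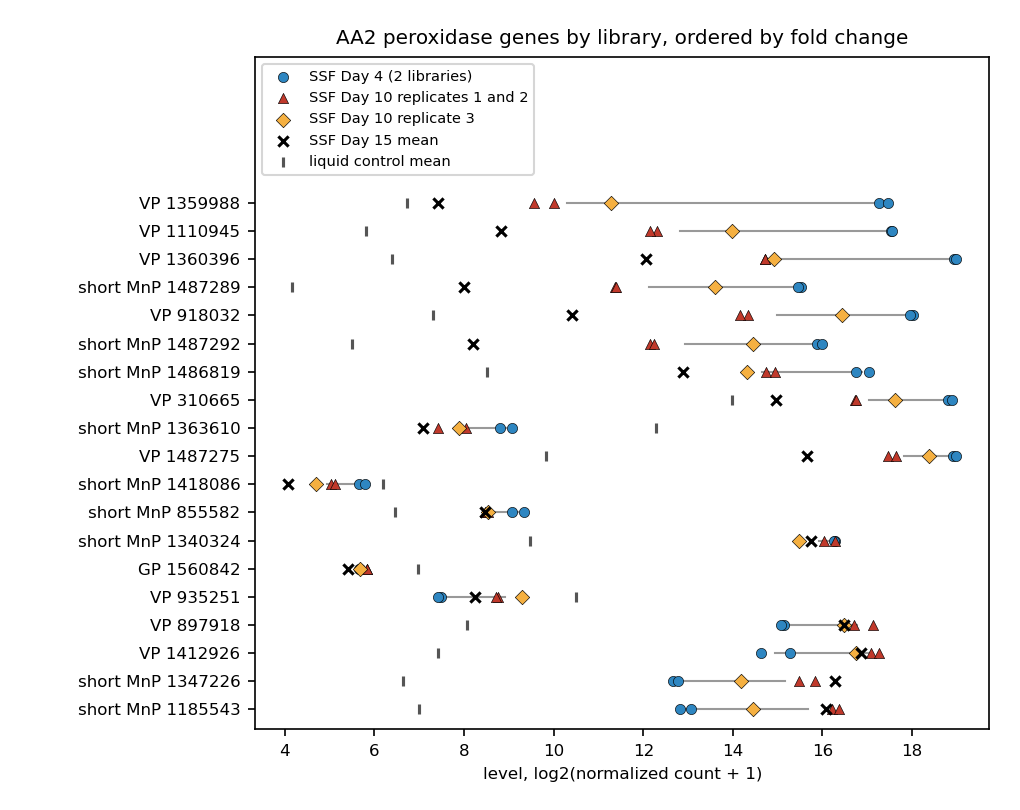
Level of each of the 19 AA2 genes, as log2(normalized count + 1), in the 2 Day 4 libraries (blue circles), Day 10 replicates 1 and 2 (red triangles) and Day 10 replicate 3 (orange diamonds), with a grey line joining the means of the days and marks for the means of Day 15 and of the liquid control. From top to bottom the genes run from VP 1359988 (-6.85) to MnP 1185543 (2.97), and the orange diamond of VPs 1359988, 1110945 and 918032 and of MnPs 1487289, 1487292, 1347226 and 1185543 lies between the other Day 10 libraries and Day 4.

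Among the possible sources of hydrogen peroxide, the 3 AA5_1 oxidases examined all rose (22.3% of all genes did), 1 of them by a margin that depends on the fit. The study calls them copper radical oxidases, and gives likeness to a glyoxal oxidase of another white-rot fungus for 713930 and 1557562 only. The 3 genes were taken from the study's tables of enzymes highly transcribed or secreted on straw and need not be all AA5_1 genes of the genome. The main gene, 713930, was already at 17.56 and 17.65 at Day 4 and reached 18.38, 18.36 and 18.20 at Day 10 (log2 fold change 0.73 ± 0.13, adjusted p = 5.4e-04). Gene 1557562 went from 16.80 and 16.94 to 17.36, 17.51 and 17.04 (0.47 ± 0.17, adjusted p = 0.039), but it did not pass with DESeq2 size factors, with only the 2 groups in the fit, or in 7 of the 11 fits that left out a library, those without a Day 4 library among them. Gene 1353775, a minor transcript, rose from 9.31 and 9.47 to 10.75, 10.76 and 12.11 (2.00 ± 0.35, adjusted p = 4.5e-04). Here replicate 3 was the highest library, and the rise was 1.41 without it. The 3 genes together went from 0.984% and 1.03% of all counts at Day 4 to 1.80%, 1.82% and 1.60% at Day 10.

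The AA3 family, also listed from the genome, showed no common direction. Of 36 genes, 33 were tested, of which 8 rose (24.2%) and 9 fell (27.3%), with a median of 0.08. These shares are near those of all genes (22.3% and 22.0%). The number of rises was 4 without Day 4 replicate 1, 5 without Day 4 replicate 2 and at most 10 in the other fits that left out a library. The largest rise was that of 1349968 (AA3_2, the subfamily of aryl-alcohol and glucose oxidases), from 10.78 and 11.12 to 13.11, 13.27 and 12.37 (log2 fold change 2.03 ± 0.22, adjusted p = 7.8e-06). Next came 1349632 (AA3_2), with 78 to 80 counts per library at Day 4 and 148 to 374 at Day 10 (1.50 ± 0.33, adjusted p = 2.6e-03). Both remained less abundant than the leading members. The AA3_3 gene 1364967, of the alcohol oxidase subfamily, had the highest level per kilobase at Day 4 (1980 CPM) and fell from 17.09 and 17.16 to 15.85, 16.15 and 16.43 (-0.93 ± 0.15, adjusted p = 2.2e-04). By the mean of the Day 10 libraries the AA3_2 gene 1422328 stood first, with 1260 CPM per kilobase against 1040 for 1364967. This ranking leans on replicate 3, where 1422328 had 129137 counts, against 57998 and 60538 in replicates 1 and 2. Gene 1422328 had levels of 16.08 and 15.80 at Day 4 and 16.15, 16.17 and 17.23 at Day 10, and did not pass the test (0.69 ± 0.28, adjusted p = 0.057). Its change was 0.26 without replicate 3, and it passed with the DESeq2 Wald test and without replicate 1 or 2 of Day 10.

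Other AA3 genes moved less. The secreted AA3_2 enzymes 1343556 and 1399288 had log2 fold changes of 0.46 ± 0.11 (adjusted p = 3.8e-03) and 0.34 ± 0.17 (adjusted p = 0.12), the first lost without Day 4 replicate 1. The steepest falls among the members that passed were those of 1327691 (AA3_2), which had 16 to 70 counts per library, by 1.22 on the log2 scale, and of 1467319 (AA3_3), by 1.21. The call of 1327691 was also lost without Day 4 replicate 1. Cellobiose dehydrogenase, 1364243, joins an AA3_1 domain to a haem domain (AA8) and can pass electrons to AA9 monooxygenases. It fell from 13.14 and 13.15 to 10.88, 10.43 and 11.06 (log2 fold change -2.31 ± 0.19, adjusted p = 8.6e-07), 4.96-fold, with no overlap between the days.

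Genes for cellulose breakdown fell, and none rose. Of 13 genes of the families GH5, GH6, GH7, GH12, GH131 and AA9, 11 (84.6%) were lower at Day 10, against 22.0% of all genes, and 2 did not pass the test. The median change was -1.36 on the log2 scale. The list comes from the study's table of CAZymes, which it chose for high transcription at Day 4 of these libraries. Such a choice favours falls, so the direction has no independent support from this count, and families were assigned whole to 1 substrate. Under every alternative scaling, filter and left-out library tried, no member was called higher. The share of the list in all counts went from 0.953% and 1.05% at Day 4 to 0.572%, 0.412% and 0.468% at Day 10.

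Family GH7 holds cellobiohydrolases, which cut cellulose chains from their ends. The table used here lists 2 of its genes, and any other GH7 gene was not analysed here. GH7 355477 had levels of 14.81 and 14.85 at Day 4 and of 8.94, 8.66 and 10.93 at Day 10 (log2 fold change -4.91 ± 0.58, adjusted p = 2.0e-05), a 30.1-fold decrease. Without replicate 3 the fold change was -5.98. GH7 1347545, the more abundant of the genes listed, went from 15.89 and 15.98 to 15.83, 15.11 and 15.53, and its difference did not pass the test (-0.39 ± 0.25, adjusted p = 0.23). Per kilobase, 355477 dropped from 554 to 18.4 CPM and 1347545 went from 1500 to 1150.

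AA9 monooxygenases cleave cellulose by oxidation. The list holds 5 AA9 genes, those highly transcribed at Day 4, of which 4 fell, and the other AA9 genes of the genome were not analysed here. AA9 1420749 fell furthest, from 14.15 and 14.46 to 11.24, 10.92 and 11.51 (log2 fold change -3.04 ± 0.29, adjusted p = 2.7e-06). The remaining members are outside the rule by which genes were named and are given for completeness after their values were seen. AA9 1452362, 1456024 and 1403153 fell by 1.56, 1.36 and 0.73, and 1339229 had a log2 fold change of -0.45 ± 0.22 (adjusted p = 0.12). The GH131 gene 492772 fell by 2.43, the GH5 gene 1412845 by 1.99, the GH12 gene 1351738 by 1.42 and the GH6 cellobiohydrolase 1477052 by 1.35. The smallest falls that passed were those of the GH5 genes 1401866 (0.68) and 1063890 (0.45). The latter call, at adjusted p = 0.041, was lost with library totals, with the stricter filter and in 7 of the 11 fits that left out a library, those without Day 4 replicate 1 and Day 10 replicate 3 among them. By Day 10, 6 of the 13 had mean levels under 12, the study's limit of high transcription, applied here to single genes. All 13 had been above it at Day 4, so a crossing could only be downward. Of all genes, 1413 were above 12 at Day 4, and 444 of them were not at Day 10.

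The 17 genes for hemicellulose and pectin, from the same table and with the same limit on what their direction shows, divided. At Day 10, 8 (47.1%) were higher, 6 (35.3%) were lower and 3 did not pass, with a median of 0.54. Of all genes 22.3% were higher and 22.0% lower. Their share of counts was 0.760% and 0.844% at Day 4 and 0.994%, 0.865% and 0.912% at Day 10. The 3 members with a mean level at or under 12 at Day 4 were all above it at Day 10. GH2 1437352, of a family of beta-mannosidases and beta-galactosidases, rose most, from 11.26 and 11.90 to 14.49, 14.52 and 13.02 (log2 fold change 2.57 ± 0.37, adjusted p = 9.7e-05). GH27 1498325, of the alpha-galactosidase family, rose from 12.45 and 12.55 to 14.69, 14.63 and 14.32 (2.08 ± 0.14, adjusted p = 1.7e-07). Galactose decorates mannan and other hemicelluloses. Outside the naming rule, the acetylesterases CE16 1395444 and 1412498 rose by 1.94 and 1.90, the exo-arabinanase family gene GH93 397425 by 1.20, the xylanase GH10 16190 by 1.03 and the pectin esterase family gene CE12 832761 by 0.95.

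Single families held genes of opposite change. The endoxylanases of family GH10, which cut the xylan backbone, are the clearest case, with 2 that rose, 1 that fell and 1 that did not pass. GH10 659690 was the steepest fall of the list, from 14.63 and 14.86 to 12.27, 11.87 and 12.61 (log2 fold change -2.44 ± 0.19, adjusted p = 3.8e-07). Meanwhile 16190 and 1520578 rose by 1.03 and 0.54. GH10 1486161 had levels of 13.88 and 14.32 at Day 4, and of 13.44, 13.31 and 15.23 at Day 10 (0.19 ± 0.45, adjusted p = 0.75): replicates 1 and 2 lay below Day 4 and replicate 3 above it. CE1 1456088, of a family with feruloyl and acetylxylan esterases, also had its highest level in replicate 3, with 13.70 and 14.15 at Day 4 and 13.77, 13.93 and 15.43 at Day 10 (0.67 ± 0.38, adjusted p = 0.18). In this gene replicates 1 and 2 lay within the range of Day 4. GH30 784226 fell by 1.23 (adjusted p = 1.9e-04), CE1 139112 by 1.08, GH51 1461559 by 0.84, the polygalacturonase family gene GH28 1447784 by 0.83 and CE15 1486135 by 0.52.

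Of the 8 other glycoside hydrolase genes of that table, 1 rose (12.5%, against 22.3% of all genes), 4 fell (50%, against 22.0%) and 3 did not pass (median -0.49). GH3 593055 (GH3 holds beta-glucosidases and beta-xylosidases) fell from 12.96 and 13.05 to 11.01, 10.33 and 10.71 (log2 fold change -2.27 ± 0.16, adjusted p = 2.1e-07). GH18 1351991, of the chitinase family, fell by 1.70 and GH15 1349191, of the glucoamylase family, by 0.91. GH3 224000 rose by 0.69 ± 0.18 (adjusted p = 9.0e-03), a call lost without Day 4 replicate 1.

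**Figure D5:**
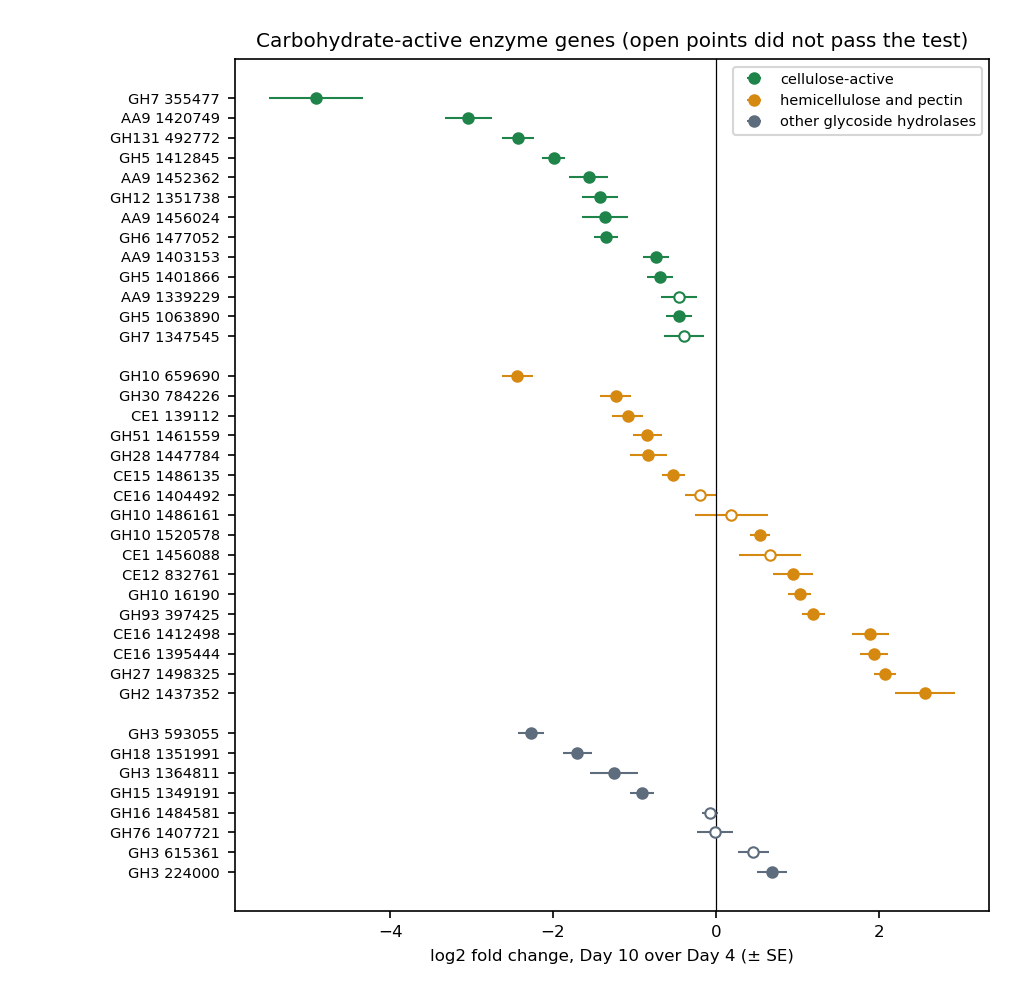
Log2 fold change from Day 4 to Day 10, with its standard error, of the 13 cellulose-active (green), 17 hemicellulose and pectin (orange) and 8 other glycoside hydrolase genes (grey), each named by family and protein number. Filled points passed the test and open points did not; the green points run from -4.91 to -0.39, and the orange points from -2.44 to 2.57.

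Genes of intracellular detoxification and transport, taken from lists that the study chose for high transcription on all 3 SSF days, changed in both directions. They are abundant transcripts, which were called more often than others. Among the 3866 genes with the highest mean level, 27.5% rose and 31.6% fell. Cytochrome P450s are monooxygenases that can modify aromatic compounds. Of 11, 6 fell (54.5%), 1 rose (9.09%) and 4 did not pass (median change -0.43 on the log2 scale), where 22.0% of all genes fell and 22.3% rose. CYP5136 1402446 fell from 14.26 and 14.30 to 13.32, 13.15 and 12.84 (-1.14 ± 0.12, adjusted p = 8.8e-06) and CYP53 1398198, of a family of benzoate hydroxylases, by 0.98 ± 0.12 (adjusted p = 2.3e-05). CYP512 1410594 rose by 0.70 ± 0.09 (adjusted p = 4.5e-05), and CYP5137 1404557 had the smallest fall, by 0.43, with a call lost with library totals and without either Day 4 library. Replicate 3 was the lowest of all 5 libraries in 8 of the 11, a count with no baseline over all genes. Without replicate 3, 3 rose and 6 fell.

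Glutathione S-transferases couple glutathione to reactive compounds. Of 4, 1 rose and 1 fell (25% each, against 22.3% and 22.0% of all genes). Gene 1357910 went from 13.83 and 14.23 to 15.95, 16.12 and 15.60 (log2 fold change 1.88 ± 0.17, adjusted p = 2.2e-06), and 1364150 had a smaller change of -0.52 ± 0.17 (adjusted p = 0.028), which did not pass with library totals, with only the 2 groups in the fit, or without Day 4 replicate 2 or Day 10 replicate 1. The 4 genes together rose from 0.197% and 0.254% of all counts to 0.389%, 0.458% and 0.385%. Of 14 transporters of the major facilitator superfamily, which carry sugars and other small molecules across membranes, 4 rose (28.6%, against 22.3% of all genes) and 6 fell (42.9%, against 22.0%), with a median of 0.03. Permease 1394716 had the largest change, from 10.92 and 11.08 to 13.92, 13.96 and 13.68 (2.89 ± 0.13, adjusted p = 5.3e-09), and its Day 10 libraries lay close together. Permease 540241 rose by 0.95, while permease 1454421 and transporter 1422437 fell by 1.51 and 1.13.

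The 20 single-copy genes that the study used for its phylogeny served as a set with no tie to straw. Among them 3 rose and 3 fell (15% each, against 22.3% and 22.0% of all genes), with a median of 0.03 and changes from -0.68 to 0.64. The largest rises were those of genes named SEN1 (0.64 ± 0.20, adjusted p = 0.022) and RAV1 (0.51 ± 0.13, adjusted p = 6.6e-03) after genes of baker's yeast, for a helicase and a regulator of the vacuolar proton pump. The largest falls were those of UNK51 (by 0.68) and NCR1 (by 0.61). The number of rises ranged from 0, without Day 4 replicate 2, to 4 over the fits that left out a library.

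The study chose its sets of highly transcribed genes by a limit of 12 on the means of co-regulated groups. With that limit applied here to the mean of each gene, 1413 genes were above it at Day 4 and 1214 at Day 10. Of these, 969 were above the limit at both days, 444 were above it only at Day 4 and 245 only at Day 10. The test called 390 of the 444 lower and 214 of the 245 higher, so the rest crossed the limit by a change that did not pass. Only 1 peroxidase, VP 1359988, dropped below the limit by its mean. MnP 1487289 stayed above it, with a mean of 12.12, through replicate 3 (13.59), while replicates 1 and 2 were at 11.37 and 11.40. Cellobiose dehydrogenase and 6 cellulose-active genes also left the class.

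Among genes in no list, with a mean of at least 50 counts over the 5 libraries, 2874 of 12002 (23.9%) rose and 3127 (26.1%) fell with no overlap between the days. Over all genes tested, without that minimum, these shares were 21.7% and 21.9%. Genes at low levels were called less often, so these shares cannot be compared directly. The tables used here give no product for these genes. The largest rise was that of 1559509, from 46 and 68 counts at Day 4 to 60340, 88663 and 29605 at Day 10 (log2 fold change 9.96 ± 0.53, adjusted p = 1.8e-08). Its mean level in the liquid control was 15.20, so this gene was abundant off straw, nearly silent at Day 4 and abundant again at Day 10. Next came 1483874, from 9 and 10 counts to 1280, 1674 and 2032 (7.38 ± 0.35). The largest falls were those of 1037732, from 4460 and 4968 counts to 51, 67 and 169 (-5.69 ± 0.33, adjusted p = 3.4e-08), and of 775515, from 7851 and 7761 to 264, 252 and 286 (-4.93 ± 0.13).

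Whether the first step differed from the next one was tested gene by gene as the change from Day 10 to Day 15 minus the change from Day 4 to Day 10. The difference passed for 2790 genes (18.0%). Over the second step itself 11.7% of the genes rose and 12.4% fell. Both steps share the Day 10 libraries, so a gene chosen for its first step is favoured to differ in the second, and the steps span 6 and 5 days. A library that lies between the days, as replicate 3 did, moves the steps in opposite directions. Without it 3507 genes passed.

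For all 3 AA5_1 oxidases the mean was highest at Day 10 of the SSF days, and the second step lay below the first: 713930 had 0.73 and then -0.90 (adjusted p of the difference 1.1e-04), 1557562 had 0.47 and then -0.48 (0.025) and 1353775 had 2.00 and then -2.39 (7.1e-05). The 5 peroxidases that rose were selected for a high Day 10 value, which enters the second step with the opposite sign, so their difference of steps is not read as a test. Their second steps were -0.20 for VP 1412926, -0.29 for VP 897918, -0.70 for VP 935251, 0.18 for MnP 1185543 and 0.96 for MnP 1347226. The same holds, in the other direction, for the 12 that fell. VPs 1359988 and 1360396 had second steps of -3.06 and -2.72, smaller than the first, and of -2.39 and -2.66 without Day 10 replicate 3. Larger second steps were those of VPs 1487275 (-2.22), 918032 (-4.95) and 310665 (-2.13) and of MnPs 1487292 (-5.16), 1487289 (-4.52) and 1418086 (-0.93). Without replicate 3, VP 1487275 had -1.35 and then -1.90, and MnP 1418086 -0.61 and then -1.06. VP 918032 had -3.69 and then -3.82, and MnP 1487292 -3.71 and then -3.99. For VP 310665 (-2.06 and then -1.77) and MnP 1487289 (-4.05 and then -3.38) the second step was then smaller. MnP 1486819 had -2.18 and then -1.79, and VP 1110945 had -4.45 and then -4.18, but -5.26 and then -3.36 without replicate 3.

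Within the polysaccharide enzymes the steps also varied by gene. The genes given here were named for a large first step or picked after their values were seen. Their differences of steps are therefore not read as tests. GH5 1412845 fell by 1.99 and then had 0.34, and AA9 1403153 fell by 0.73 and then rose by 0.66. GH10 1486161 and CE1 1456088, the genes for which replicate 3 stood highest, had second steps of -3.89 and -1.97, and of -2.98 and -1.24 without it. GH27 1498325 rose by 2.08 and again by 1.28. GH2 1437352 rose by 2.57 and again by 0.96, and by 2.94 and then 0.61 without replicate 3. Permease 1394716 had its rise almost entirely in the first step, with 2.89 and then 0.24.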

How the data were processed

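The members compared, the gene lists and the tests were chosen with earlier results of these data known. The values are raw counts of reads per gene, made by the authors and deposited as 1 table of 18244 genes in 11 libraries. Per the study's methods, reads were trimmed with Sickle (quality and length minimum 20), mapped with TopHat2 (unique hits only) and counted per gene by HTSeq. DESeq 1.5 appears in the submitters' processing notes. Unique mapping can lower the counts of near-identical paralogs, which touches the AA2 family, and no source used here gives the strand setting. The study gives triplicates and calls them biological replicates; 2 Day 4 libraries were used here. Read length is given differently by the labels and the paper. No column was left unused.

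Tests used edgeR 4.0.16 (R 4.3.3): TMM scaling, filterByExpr (minimum count 10, minimum total 15), 4 group means over all 11 libraries 7 residual degrees of freedom, the quasi-likelihood F test, and a limit of 0.05 on p-values adjusted by Benjamini-Hochberg. The standard error of a fold change is its size over the root of F. Levels use DESeq2 1.42.0 size factors and a pseudocount of 1. Levels per kilobase are CPM with TMM scaling, divided by the RefSeq gene span; 18240 of 18244 gene numbers matched locus tags. Shares of counts were compared by exact permutation (scipy 1.17.1); intervals cover counting error only. The test was also run on simulated counts, with an outcome that is not given here.

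AA2 and AA3 lists come from the study's genome annotation, the other lists from its tables of CAZymes, P450s, transferases, transporters and phylogeny genes. CAZyme families were divided by substrate here. Named were all AA2 and AA5_1 genes, cellobiose dehydrogenase, the study's table of abundant auxiliary enzymes, and of every other list the 2 largest and 2 smallest fold changes that passed; of genes in no list, with a mean of at least 50 counts and no overlap, the 2 largest rises and falls.

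Alternatives were DESeq2 size factors, library totals, the DESeq2 Wald test, no filter, a filter of 50 counts, a replicate block, only the 2 groups compared, a minimum log2 change of 1 in the test, and leaving out every library singly. For levels they were TMM factors and limits of 11 and 13 and for shares a total over filtered genes.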

Additional observations from a re-analysis of the deposited data

How the results depend on the processing

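The numbers of genes higher and lower at Day 10 were within 1.5 times of the 3450 and 3402 reported under all alternatives except 1. That was a minimum log2 change of 1 in the test, which by construction asks for more. It left 601 higher and 567 lower, and 564 of the 2790 genes whose second step differed. Within the band of 1.5 times, the Day 4 and Day 10 libraries modelled alone gave 2437 higher and 2365 lower. Leaving out each library gave 2520 to 3827 higher, 2688 to 3585 lower and 2214 to 3507 whose steps differed. The lowest number of rises came without Day 4 replicate 1 and the highest without Day 10 replicate 3. Where a single Day 4 library remained, it is assumed to vary like the other groups. For the genes that crossed the limit of 12, those above it only at Day 4 numbered 248 with a limit of 13, and those above it only at Day 10 numbered 411 with a limit of 11 and 162 with a limit of 13, against 444 and 245. Leaving out each of the 5 libraries gave 430 to 463 and 236 to 279.

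The samples share only replicate numbers. With a replicate block 3560 genes were higher and 3576 lower. Deviations of same-numbered libraries of Days 4 and 10 correlated at 0.163 and 0.171. For Day 10 replicates 1 and 2 with the other Day 4 library the values were -0.163 and -0.171. The deviations of the 2 Day 4 libraries mirror each other, so these values cannot decide whether libraries were paired.

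MnP 1340324 passed only without Day 10 replicate 2 (-0.46). No named gene changed direction past the threshold under any alternative. Of 61 named genes, 34 stayed on their side of the threshold with the minimum change, 55 with library totals, 54 with the 2 groups alone, and 54 and 55 without Day 4 replicate 1 and 2. With 2 libraries at Day 4, small changes rest on little: a gene called only narrowly, such as the AA5_1 oxidase 1557562, depends on either of them.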
